A study of Mus musculus with 12 samples.

Results

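The 10 genes described here are receptors, junction proteins, surface proteins and a transcription factor of the vascular endothelium: Kdr, Flt1, Tek, Tie1, Eng, Cdh5, Pecam1, Esam, Emcn and Sox18. They were taken by gene symbol from a list of endothelial genes, and all 10 were found among the 53342 genes of the table. RNA was sequenced from the caudal part of mouse embryos at E10.5 in 12 libraries, 3 for each of 4 genotypes. The mutants were beta-catenin cKO and Emg1 cKO, in which Ctnnb1 or Emg1 is removed conditionally, and Vangl2 Lp/Lp, homozygous for the loop-tail allele of the planar cell polarity gene Vangl2. The reference was wild type. Each library was made from RNA pooled over 4 to 7 embryos, so that the spread between libraries is one between pools. The sources used here do not give the recombinase driver of the conditional knockouts, the strain, or whether the wild-type embryos carried unrecombined alleles. The study asked how the mutations that impair neural tube closure change gene expression in this region. Values are given as TPM (transcripts on a per-million basis, corrected for gene length) or, where genotypes are compared, as RPM (reads on a per-million basis) after TMM scaling, which sets the libraries to a shared level over most genes.

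Endothelial cells line the blood vessels. VEGF-A drives their division and sprouting through the receptor tyrosine kinase KDR (VEGFR2), while FLT1 (VEGFR1) binds the same ligand tightly, signals weakly and, in its soluble form, holds it away from KDR. TEK (TIE2) is the receptor of the angiopoietins and steadies vessels, and TIE1 is its partner without a well-established ligand of its own. Endoglin, the product of Eng, is a co-receptor for BMP9 and BMP10. CDH5 (VE-cadherin) is the cadherin of endothelial adherens junctions and binds beta-catenin inside the cell, PECAM1 and ESAM are adhesion molecules of the immunoglobulin family at the same cell borders, and EMCN (endomucin) is a sialomucin of the cell surface, in the adult mostly on veins and capillaries. SOX18 is a transcription factor of early endothelium that acts in arterial and lymphatic development. At this stage of mouse development a plexus of vessels surrounds the neural tube, and vessels begin to grow into it.

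All 10 genes lie on autosomes. Positions on mm10 are chr5:75932827-75978458 for Kdr, chr5:147561604-147726011 for Flt1, chr4:94739289-94874976 for Tek, chr4:118471191-118490061 for Tie1 and chr2:32646595-32682669 for Eng. Those of the other members are chr8:104101625-104144511 for Cdh5, chr11:106654217-106750628 for Pecam1, chr9:37528078-37538319 for Esam, chr3:137341067-137432185 for Emcn and chr2:181669836-181671640 for Sox18. Eng shares its locus with Fpgs on the opposite strand, which reached 31.8 TPM, and since the sources used here do not state the strand setting of the counting, reads from the overlap could have been assigned to either gene. The antisense gene Gm29682 over Cdh5 had 4 reads in all 12 libraries together.

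Promoter sequences were read from a RefSeq table on GRCm38.p6, the assembly that mm10 names, running from 250 bases before to 50 bases after the annotated start. Of the 10 members, 6 were matched (Kdr, Tek, Flt1, Tie1, Emcn and Eng), and Cdh5, Pecam1, Esam and Sox18 were not. Those printed here are the matched members that passed the test in a mutant (Kdr, Tek, Emcn) and, beside them, the second receptor of each pair (Flt1, Tie1), which did not. Capitals mark GGAA or its reverse complement TTCC, the core letters that ETS factors bind, and all sequences run 5' to 3' on the gene's own strand.
Kdr promoter, chr5:75978406-75978705, minus strand: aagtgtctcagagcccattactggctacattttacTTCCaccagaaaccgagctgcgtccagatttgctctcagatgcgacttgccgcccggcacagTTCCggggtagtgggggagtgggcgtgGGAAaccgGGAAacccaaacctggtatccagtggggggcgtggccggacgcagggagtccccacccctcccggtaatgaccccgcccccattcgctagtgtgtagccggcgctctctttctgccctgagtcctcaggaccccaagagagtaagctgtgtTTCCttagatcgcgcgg
Tek promoter, chr4:94739039-94739338, plus strand: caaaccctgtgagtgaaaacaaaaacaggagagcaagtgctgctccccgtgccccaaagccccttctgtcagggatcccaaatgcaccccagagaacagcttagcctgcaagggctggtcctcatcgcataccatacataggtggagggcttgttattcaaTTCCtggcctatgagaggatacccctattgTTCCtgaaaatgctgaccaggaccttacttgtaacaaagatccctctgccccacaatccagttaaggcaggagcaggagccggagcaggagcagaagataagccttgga
Emcn promoter, chr3:137340828-137341127, plus strand: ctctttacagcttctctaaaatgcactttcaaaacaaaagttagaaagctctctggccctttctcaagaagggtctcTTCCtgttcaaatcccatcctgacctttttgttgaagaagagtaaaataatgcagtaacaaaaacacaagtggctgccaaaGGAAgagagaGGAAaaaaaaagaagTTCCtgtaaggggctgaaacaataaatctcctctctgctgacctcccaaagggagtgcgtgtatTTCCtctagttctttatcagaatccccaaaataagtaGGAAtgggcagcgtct
Flt1 promoter, chr5:147725962-147726261, minus strand: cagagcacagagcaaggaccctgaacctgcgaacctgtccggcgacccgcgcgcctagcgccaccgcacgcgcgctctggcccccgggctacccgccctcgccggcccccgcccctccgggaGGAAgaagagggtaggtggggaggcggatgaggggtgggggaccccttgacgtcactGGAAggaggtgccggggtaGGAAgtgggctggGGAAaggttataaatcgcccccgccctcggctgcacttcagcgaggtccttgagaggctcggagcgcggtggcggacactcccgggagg
Tie1 promoter, chr4:118489800-118490099, minus strand: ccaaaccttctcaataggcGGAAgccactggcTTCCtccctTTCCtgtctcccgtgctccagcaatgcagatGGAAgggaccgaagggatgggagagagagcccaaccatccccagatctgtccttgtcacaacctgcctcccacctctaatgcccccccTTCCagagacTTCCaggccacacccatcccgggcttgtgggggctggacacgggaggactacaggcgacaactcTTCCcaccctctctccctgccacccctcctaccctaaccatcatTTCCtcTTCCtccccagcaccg

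The ETS core letters were present in 6 of the 6 matched promoters, and in 96.0% of the 32851 promoters of the table. They stood 5 times in Kdr, 2 times in Tek, 6 times in Emcn, 4 times in Flt1, 9 times in Tie1 and 4 times in Eng, a mean of 5.0, where the mean over all promoters was 3.52. The longer ETS letters CCGGAA, which contain the core, were found in 1 member promoter, that of Kdr, and in 14.9% of all promoters. The SOX letters AACAAT were found in Tek and Emcn, 2 of 6, and in 10.7% of all promoters. GATA stood in 3 of 6 and in 57.9% of all, CANNTG (E-box) in 5 of 6 and in 72.3% of all, and TATAAA in 1 of 6, that of Flt1, and in 13.6% of all. Both strands were searched. These are matches of letters in a window and not measured binding sites.

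All 10 members were above 1 TPM in all 12 libraries, and all 10 passed the filter on low values, which kept 17848 genes. Cdh5 was the highest of the 10 in each library, with a mean of 97.3 TPM over the 12 libraries, and Kdr was the next in each library, with 46.8 TPM. Sox18 (35.3 TPM), Tie1 (33.4 TPM), Pecam1 (31.2 TPM) and Eng (27.0 TPM) followed, then Esam (22.7 TPM), Tek (21.7 TPM) and Emcn (18.6 TPM). Flt1 was the lowest in each of the 12 libraries, with a mean of 7.34 TPM. Cdh5 and Kdr, Kdr and Sox18, and Emcn and Flt1 did not overlap in TPM within any of the 4 genotypes. Sox18 and Tie1, and likewise Esam and Tek, overlapped within all 4 genotypes, so their order is not separated from the spread between libraries. Across the 12 libraries the highest TPM of a member stood 1.25-fold (Pecam1) to 1.62-fold (Flt1) above its lowest.

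**Figure D1:**
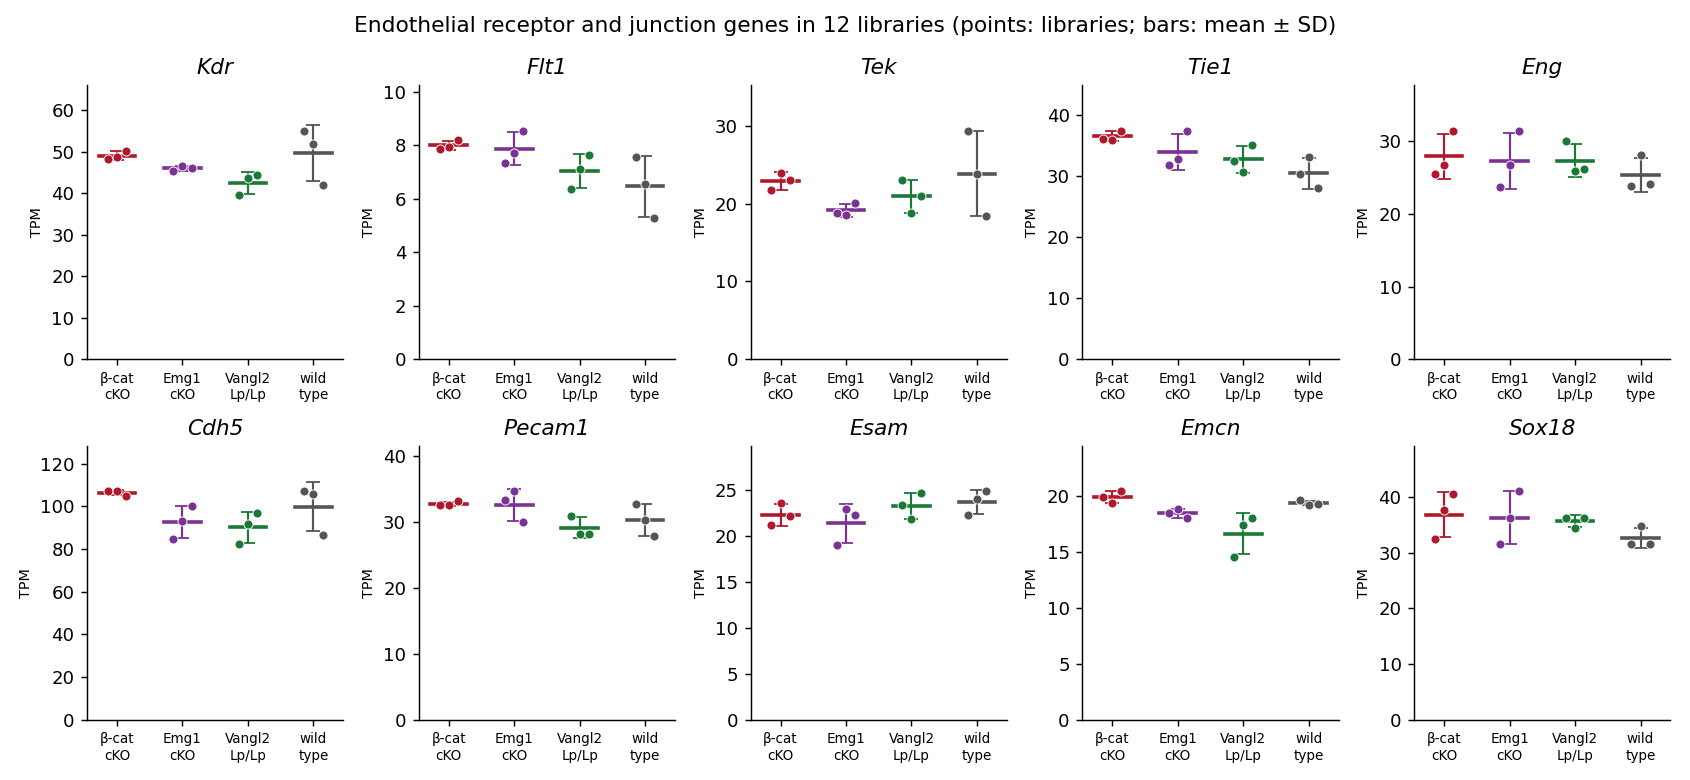
TPM of each member (one panel per gene, vertical axis from 0) in the libraries of beta-catenin cKO, Emg1 cKO, Vangl2 Lp/Lp and wild type. Points are libraries, horizontal bars the mean of 3 and error bars the SD; the wild-type libraries of Kdr, Tek and Flt1 spread more widely than those of beta-catenin cKO, from 18.4 to 29.4 TPM for Tek.

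Among the receptors, Kdr stood at 48.2, 48.7 and 50.2 TPM in beta-catenin cKO, at 45.4, 46.6 and 46.2 TPM in Emg1 cKO, at 39.5, 43.7 and 44.4 TPM in Vangl2 Lp/Lp and at 55.1, 51.9 and 42.1 TPM in wild type. Wild-type replicate 3 was the lowest of its genotype and lay within the range of Vangl2 Lp/Lp, so the genotypes overlapped on this scale. Flt1 stood at 7.86, 7.93 and 8.19 TPM in beta-catenin cKO, at 7.34, 7.73 and 8.55 TPM in Emg1 cKO, at 6.37, 7.10 and 7.65 TPM in Vangl2 Lp/Lp and at 7.56, 6.57 and 5.28 TPM in wild type. The 3 beta-catenin cKO libraries were above the 3 wild-type ones, with wild-type replicate 3 again the lowest. After TMM scaling Flt1 overlapped (31.1, 31.6 and 32.2 RPM in beta-catenin cKO, against 31.2, 27.7 and 23.8 in wild type). On log2(TPM + 1) values the median fold change of all genes in beta-catenin cKO was itself 0.103. The share of all genes apart on the TPM scale is not given here. Tek stood at 21.7, 24.0 and 23.1 TPM in beta-catenin cKO, at 18.8, 18.5 and 20.1 TPM in Emg1 cKO, at 23, 18.8 and 21 TPM in Vangl2 Lp/Lp and at 29.4, 23.8 and 18.4 TPM in wild type. Its wild-type libraries spanned the whole range of the 12. Tie1 stood at 36.2, 36.0 and 37.5 TPM in beta-catenin cKO, at 31.8, 32.8 and 37.4 TPM in Emg1 cKO, at 32.5, 30.7 and 35.1 TPM in Vangl2 Lp/Lp and at 30.3, 33.1 and 28.1 TPM in wild type, with beta-catenin cKO above wild type in all its libraries. Eng lay between 25.5 and 31.5 TPM in beta-catenin cKO, between 23.7 and 31.4 TPM in Emg1 cKO, between 25.9 and 30.0 TPM in Vangl2 Lp/Lp and between 23.9 and 28.1 TPM in wild type, overlapping throughout.

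Among the junction and surface genes, Cdh5 stood at 107, 107 and 105 TPM in beta-catenin cKO, at 84.9, 93.2 and 100 TPM in Emg1 cKO, at 82.4, 91.7 and 96.7 TPM in Vangl2 Lp/Lp and at 107, 106 and 86.6 TPM in wild type. The lowest library of Emg1 cKO and that of Vangl2 Lp/Lp were below all 3 wild-type libraries, but the genotypes overlapped through wild-type replicate 3. Emcn stood at 19.9, 19.4 and 20.4 TPM in beta-catenin cKO, at 18.5, 18.8 and 18.0 TPM in Emg1 cKO, at 14.5, 17.4 and 18.0 TPM in Vangl2 Lp/Lp and at 19.6, 19.2 and 19.3 TPM in wild type. It was the member whose libraries in Emg1 cKO and in Vangl2 Lp/Lp were all below wild type on the TPM scale. Pecam1 averaged 32.7 ± 0.379, 32.6 ± 2.45, 29.1 ± 1.62 and 30.2 ± 2.49 TPM in beta-catenin cKO, Emg1 cKO, Vangl2 Lp/Lp and wild type (SD, n = 3 each). Esam averaged 22.3 ± 1.24, 21.5 ± 2.14, 23.3 ± 1.41 and 23.8 ± 1.33 TPM in the same order, and the transcription factor gene Sox18 averaged 36.8 ± 4.08, 36.2 ± 4.72, 35.7 ± 0.978 and 32.6 ± 1.88 TPM. The genotypes overlapped in TPM for Pecam1, Esam and Sox18 in each mutant against wild type. In whole-tissue RNA, fewer endothelial cells and less RNA of a gene per endothelial cell cannot be told apart.

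The libraries held between 32863562 and 46464596 reads counted over genes. Members had between 512 reads (Sox18) and 5736 reads (Kdr) in a library. Wild-type replicate 3 stood furthest from its own group: the chi-square per gene between it and wild-type replicates 1 and 2 was 29.1 and 18.0, where other pairs of libraries of one genotype lay between 5.49 and 17.1. It was also the deepest library, with 46464596 reads, and a chi-square on counts can grow with depth. Emg1 was lower in Emg1 cKO than in wild type (48.0, 46.5 and 43.4 against 70.3, 70.9 and 80.5 TPM; adjusted p = 9.5e-06), whereas Ctnnb1 was not called in beta-catenin cKO (814, 839 and 815 against 849, 837 and 748 TPM; adjusted p = 0.20). On the TMM scale Ctnnb1 had 1240, 1290 and 1230 RPM in beta-catenin cKO, against 1340, 1360 and 1300 in wild type. The groups were thus apart and lower in beta-catenin cKO, with a log2 fold change of -0.09. Of all genes tested, 34.7% were apart there in either direction. The exons removed are not stated in the sources used here, so a value over the whole gene does not settle that label. RNA of Vangl2 in Vangl2 Lp/Lp does not check the allele, which changes the protein. All 10 neural tube genes and 14 caudal axis genes of the marker lists were expressed, so the labelled region was represented. That does not show the tissue to be alike between genotypes. The caudal axis genes summed to 630 to 693 TPM in beta-catenin cKO and 797 to 815 TPM in Emg1 cKO. In Vangl2 Lp/Lp they summed to 488 to 841 TPM, and in wild type to 744 to 756 TPM. Their median log2 fold changes against wild type were -0.40 in beta-catenin cKO, -0.09 in Emg1 cKO and -0.07 in Vangl2 Lp/Lp. The tissue also held blood: the 14 erythroid genes summed to 21800 to 22800 TPM in beta-catenin cKO, 17100 to 23300 TPM in Emg1 cKO, 20600 to 32100 TPM in Vangl2 Lp/Lp and 29800 to 35600 TPM in wild type.

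Emg1 cKO was compared with wild type. The angiopoietin receptor gene Tek, the VEGF receptor gene Kdr and the VE-cadherin gene Cdh5 were lower, by 1.17-fold to 1.35-fold. These 3 of the 10 members were called (edgeR, adjusted p under 0.05) and 0 were called higher, where 10.4% of the 17848 genes tested were called lower, 11.3% higher and 21.7% in either direction. With 10 genes, 3 calls stand close to the 21.7% called in either direction and above the 10.4% called lower. Because they depended on single libraries, they are not read as a property of the group. The median log2 fold change of the 10 members was -0.10, and that of all genes tested 0.004. Tek had 25.7, 25.7 and 27.5 TMM-scaled RPM in Emg1 cKO, against 42.3, 35.1 and 29.1 in wild type. The 2 genotypes did not overlap, and the gap was narrow at wild-type replicate 3. Its log2 fold change was -0.43 ± 0.111 (SE; adjusted p = 0.012). Kdr had 119, 124 and 121 RPM in Emg1 cKO, against 152, 147 and 127 in wild type, again without overlap, with a log2 fold change of -0.22 ± 0.065 (adjusted p = 0.023). Cdh5 had 103, 115 and 123 RPM in Emg1 cKO, against 138, 139 and 122 in wild type. Its groups overlapped at Emg1 cKO replicate 3 and wild-type replicate 3, and its log2 fold change was -0.22 ± 0.073 (adjusted p = 0.042). Esam (log2 fold change -0.27, adjusted p = 0.061) and Emcn (-0.19, adjusted p = 0.095) did not pass the threshold, although the groups of both were apart on the TMM scale. In all, 4 of the 10 members (Kdr, Tek, Esam and Emcn) were apart on that scale, each lower in Emg1 cKO, where 35.6% of all genes tested were apart in either direction. Without wild-type replicate 1 the 3 calls were lost (Tek -0.28, adjusted p = 0.053; Kdr -0.17, adjusted p = 0.08; Cdh5 -0.19, adjusted p = 0.10), and Esam was called lower instead (-0.34, adjusted p = 0.03). DESeq2 also called Esam lower (-0.27, adjusted p = 0.039). The call of Kdr was also lost without Emg1 cKO replicate 1 or 3 or wild-type replicate 2, and that of Cdh5 without Emg1 cKO replicate 1 or 2 or wild-type replicate 2, with adjusted p-values up to 0.082 and 0.14.

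Vangl2 Lp/Lp was compared with wild type. Kdr and the endomucin gene Emcn were lower, by 1.24-fold and 1.23-fold. They were 2 of the 10 members, with 0 called higher, where 3.34% of all genes tested were called lower, 5.45% higher and 8.8% in either direction. With 10 genes, 2 calls stand above these shares. Because they depended on single libraries, they too are not read as a property of the group. The median log2 fold change of the 10 members was -0.13, against 0.001 over all genes tested. Kdr had 107, 119 and 119 TMM-scaled RPM in Vangl2 Lp/Lp, against 152, 147 and 127 in wild type, without overlap, and a log2 fold change of -0.30 ± 0.065 (adjusted p = 0.0098). Emcn had 23.6, 28.3 and 28.9 RPM in Vangl2 Lp/Lp, against 32.3, 32.5 and 35.0 in wild type. These groups did not overlap, and replicate 1 was the lowest Vangl2 Lp/Lp library for both genes. The log2 fold change of Emcn was -0.30 ± 0.078 (adjusted p = 0.026). Cdh5 (-0.23, adjusted p = 0.068) and Tek (-0.27, adjusted p = 0.15) were not called. On the TMM scale 4 members (Kdr, Cdh5, Pecam1 and Emcn) had Vangl2 Lp/Lp libraries all below wild type, where 28.3% of all genes tested were apart in either direction. Without Vangl2 Lp/Lp replicate 1 neither call remained, with adjusted p-values of 0.053 for Kdr and 0.11 for Emcn, and the call of Emcn was also lost without wild-type replicate 2 or 3. Without wild-type replicate 3, Kdr (-0.38, adjusted p = 0.0013), Tek (-0.39, adjusted p = 0.03) and Cdh5 (-0.29, adjusted p = 0.03) were called.

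Beta-catenin cKO was compared with wild type. None of the 10 members was called by edgeR, where 14.5% of all genes tested were called, 6.99% lower and 7.48% higher. DESeq2 also called 0, and 0 members had an unadjusted p under 0.05. The fold changes stood on both sides of zero, with 5 above and 5 below it, a median of -0.01, and the smallest adjusted p was 0.17. Cdh5, whose protein binds beta-catenin, had 132, 133 and 128 TMM-scaled RPM in beta-catenin cKO, against 138, 139 and 122 in wild type. The groups overlapped, and the log2 fold change was -0.02, with a 95% interval of -0.17 to 0.14. Kdr had 128, 130 and 132 RPM in beta-catenin cKO, against 152, 147 and 127 in wild type (log2 fold change -0.13, 95% interval -0.27 to 0.01). Only wild-type replicate 3 lay below the beta-catenin cKO libraries, and without it Kdr was called lower (-0.20, adjusted p = 0.028). Over the 10 members the 95% intervals reached from -0.42 to 0.41 on the log2 scale. Tie1 had all beta-catenin cKO libraries above wild type and Emcn all below on the TMM scale, 2 of 10 members apart, where 34.7% of all genes tested were. The log2 fold change of Tie1 was 0.15 (adjusted p = 0.18) and that of Flt1 0.20 (adjusted p = 0.18).

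**Figure D2:**
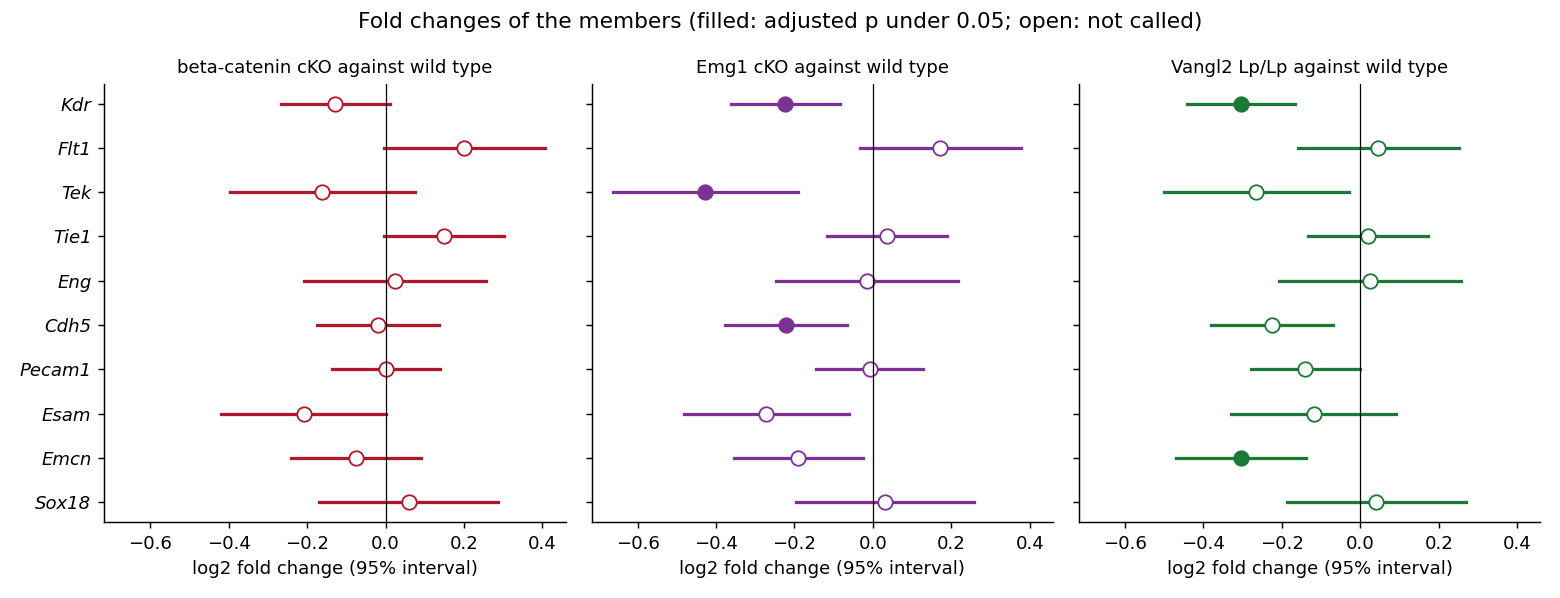
Log2 fold changes of the 10 members in the 3 mutants against wild type, with 95% intervals from the edgeR fit; filled points have an adjusted p under 0.05. The filled points are Kdr, Tek and Cdh5 in Emg1 cKO and Kdr and Emcn in Vangl2 Lp/Lp, all left of zero.

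The 3 comparisons share their wild-type libraries, so a low or high wild-type library moves a gene in the same direction in each. Side by side, the log2 fold changes against wild type in beta-catenin cKO, in Emg1 cKO and in Vangl2 Lp/Lp were -0.13, -0.22 and -0.30 for Kdr, -0.16, -0.43 and -0.27 for Tek, and -0.02, -0.22 and -0.23 for Cdh5. They were 0.20, 0.17 and 0.05 for Flt1 and 0.15, 0.04 and 0.02 for Tie1, none of them called. For Eng they were 0.02, -0.02 and 0.02, for Sox18 0.06, 0.03 and 0.04, and for Pecam1 0.00, -0.01 and -0.14. Standard errors of the members lay between 0.065 and 0.111, and the 95% intervals of Eng and Sox18 reached no further than -0.25 and 0.29 in any mutant.

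The mutants were also compared with each other. These fold changes do not rest on the wild-type libraries' values. The joint fit takes the spread from all 12 libraries, however, so wild type still enters the standard errors and p-values. In beta-catenin cKO against Emg1 cKO, edgeR called 0 of the 10 members, where 3.26% of all genes tested were called, and 2 members had an unadjusted p under 0.05. These were Cdh5 (132, 133 and 128 against 103, 115 and 123 RPM; log2 fold change 0.20, adjusted p = 0.17) and Tek (30.0, 33.4 and 31.7 against 25.7, 25.7 and 27.5; 0.27, adjusted p = 0.25). Both were without overlap, as were Kdr and Emcn, so that 4 of 10 members were apart, each higher in beta-catenin cKO, where 23.8% of all genes tested were apart in either direction. In beta-catenin cKO against Vangl2 Lp/Lp, edgeR called 0 of 10, where 3.87% of all genes were called, and 4 members had an unadjusted p under 0.05. Emcn had the smallest adjusted p (31.7, 30.9 and 32.1 against 23.6, 28.3 and 28.9 RPM; 0.23, adjusted p = 0.14). In 6 of 10 members (Kdr, Cdh5, Pecam1, Flt1, Tie1 and Emcn) all beta-catenin cKO libraries were above Vangl2 Lp/Lp, where 21.4% of all genes tested were apart in either direction. The median log2 fold change of the members was 0.08 in beta-catenin cKO against Emg1 cKO and 0.14 against Vangl2 Lp/Lp, where those of all genes tested were -0.002 and -0.004. In Emg1 cKO against Vangl2 Lp/Lp, edgeR called 0 of 10, where 2.83% of all genes were called, 0 members had an unadjusted p under 0.05, and the median was 0.01. Here 1 member, Kdr, was apart, higher in Emg1 cKO, where 21.6% of all genes tested were. Fold changes were above zero for 10 of 10 members in beta-catenin cKO against Emg1 cKO and for 8 of 10 against Vangl2 Lp/Lp. They were so for 6 of 10 in Emg1 cKO against Vangl2 Lp/Lp, and none of these differences passed the test across all genes. The 10 of 10 depended on single libraries. Without Emg1 cKO replicate 1, Flt1 (-0.02), Eng (-0.05), Esam (-0.02) and Sox18 (-0.06) were below zero. Pecam1 was so without Emg1 cKO replicate 3 (-0.05), and Eng (-0.05) and Sox18 (-0.04) without beta-catenin cKO replicate 3. The share of all genes above zero is not given here.

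A ratio between 2 members within a library does not depend on how the library is scaled. The ratios named here were picked after their values were seen and carry no test. Kdr over Flt1, the signalling VEGF receptor over the one that binds VEGF and signals weakly, stood at 6.13, 6.14 and 6.13 in beta-catenin cKO, at 6.19, 6.03 and 5.4 in Emg1 cKO, at 6.2, 6.15 and 5.8 in Vangl2 Lp/Lp and at 7.28, 7.91 and 7.98 in wild type. Every mutant library was thus below every wild-type library, and wild-type replicate 3, the lowest in both genes, had the highest ratio. Kdr over Tie1 stood at 1.33, 1.35 and 1.34 in beta-catenin cKO, at 1.43, 1.42 and 1.24 in Emg1 cKO, at 1.21, 1.43 and 1.26 in Vangl2 Lp/Lp and at 1.82, 1.57 and 1.5 in wild type, also without overlap. Cdh5 over Tie1 lay between 2.80 and 2.98 in beta-catenin cKO, between 2.67 and 2.84 in Emg1 cKO, between 2.53 and 2.99 in Vangl2 Lp/Lp and between 3.08 and 3.54 in wild type. Of the 45 ratios among the 10 members, 13 were without overlap in beta-catenin cKO against wild type, 12 in Emg1 cKO and 14 in Vangl2 Lp/Lp, and 7 were so in all 3 mutants. Over the ratios of all pairs among 17225 tested genes with values above 0 in every library, 33.8%, 34.9% and 27.1% were without overlap in the same order, and 12.3% were so in all 3 mutants. The members' counts stand close to or below these shares and are not read as a property of the group. Those 7 paired Kdr, Cdh5, Emcn or Esam with Flt1, Tie1 or Sox18 (Kdr over Flt1, Kdr over Tie1, Cdh5 over Flt1, Cdh5 over Tie1, Flt1 over Emcn, Tie1 over Esam and Esam over Sox18). In each of them the part of Flt1, Tie1 or Sox18 was larger in the mutants than in wild type. Between the mutants 7 to 8 of the 45 ratios were without overlap, where 21.1% to 24.4% of the ratios of all gene pairs were. The wild-type libraries enter all 3 comparisons, and with 3 libraries a genotype an exact permutation test of one ratio could not go below a two-sided p of 0.10.

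**Figure D3:**
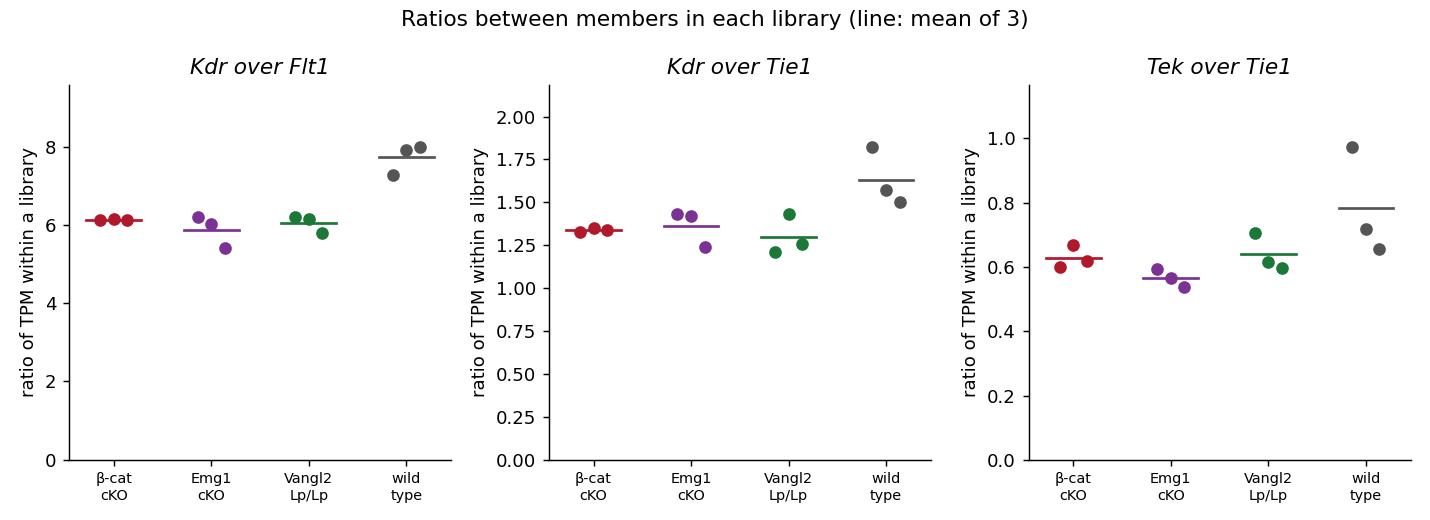
Ratios of TPM between members in each library, for Kdr over Flt1, Kdr over Tie1 and Tek over Tie1; points are libraries and lines the mean of 3. Wild type lies above the 3 mutants in the first 2 panels (7.28 to 7.98 for Kdr over Flt1) and overlaps with beta-catenin cKO and Vangl2 Lp/Lp in the third.

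Within genotypes the members did not move as one. After the genotype mean was taken away from the log2 TMM-scaled values, the 45 pairs of members had a median Pearson correlation of 0.15 over the 12 libraries, from -0.65 (Tek and Emcn) to 0.90 (Eng and Sox18), and 9 pairs were above 0.5. Kdr went with Flt1 (0.88) and with Cdh5 (0.77), and Cdh5 with Flt1 (0.87). Sox18 went with Eng (0.90) and with Tie1 (0.71), whereas Kdr and Sox18 had a correlation of -0.01. In Emg1 cKO replicate 1, 9 of 10 members were below the mean of their genotype. In wild type Tek deviated by 0.26 in replicate 1 and by -0.26 in replicate 3. In beta-catenin cKO replicate 1, 8 of 10 members were below their mean. Libraries share their pools and depth across all members, so these correlations describe the libraries and carry no test. The share of all gene pairs above 0.5 is not given here, so the 9 of 45 cannot be set against it.

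**Figure D4:**
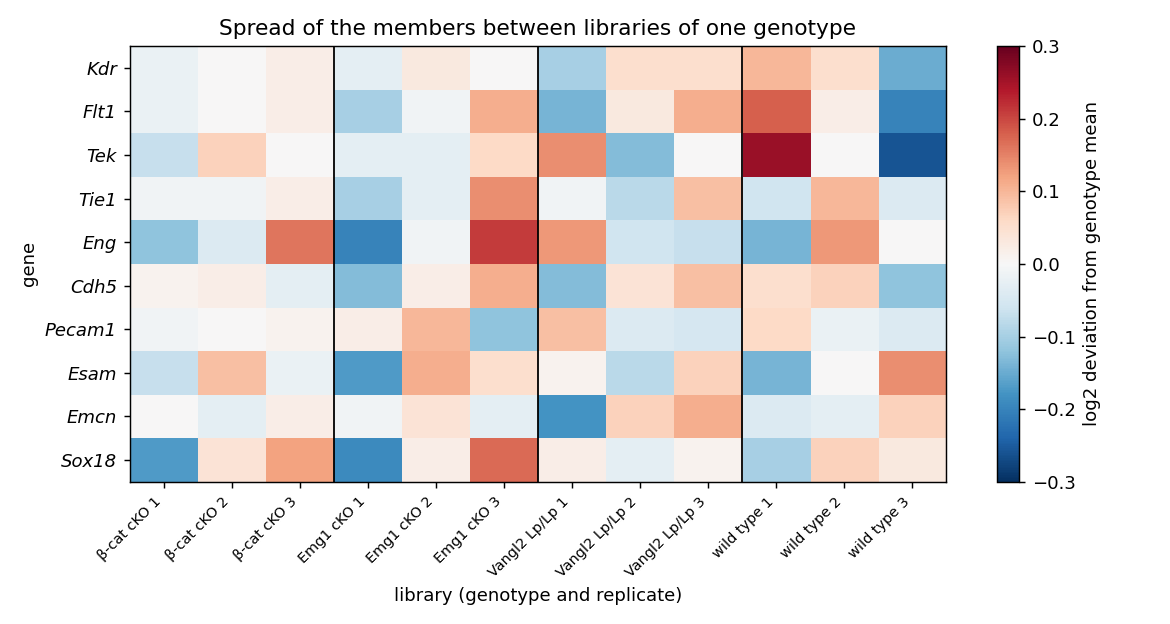
Deviation of each member (rows) from the mean of its genotype in each library (columns; log2 of TMM-scaled RPM), red above and blue below the mean. Kdr, Flt1 and Cdh5 share their blue columns in Vangl2 Lp/Lp replicate 1 and wild-type replicate 3, and Eng and Sox18 share theirs in Emg1 cKO replicate 1.

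The mean of the standardised log2 values of the 10 members was lowest in Emg1 cKO replicate 1 (-1.03) and highest in wild-type replicate 2 (0.71). Among the other genes tested, Hey2, a Notch target gene of arterial endothelium and heart, followed that mean most closely over the 12 libraries (Pearson r = 0.978, with 9.7 to 13.1 TPM). Map3k11 (0.916), Lhfpl2 (0.903), Gata6 (0.898), Tmem108 (0.889), Arhgef16 (0.87) and Adrb3 (0.866) were among those that came next. With genotype means removed the closest were Samd4b (0.981), Ephb4 (0.977), the ephrin receptor gene of venous endothelium, and Hey2 (0.966), then Abcf1 (0.961), Mkl1 (0.949), Inppl1, Kansl3 and Patz1 (0.94 each). The 90 tested genes of the 8 other endothelial lists had a median r of 0.22, against 0.0 over all 17838 genes, and 21 of the 90 were above 0.5, against 5.82% of all genes. With genotype means removed the median was 0.22 against -0.04, with 22 of the 90 above 0.5, against 13.2% of all genes. Lists of other cells reached similar or higher medians. Over the 12 libraries the median was 0.44 for 10 lateral mesoderm genes and 0.38 for 11 mural genes, and with genotype means removed it was 0.44 for lateral mesoderm, 0.36 for 10 neural tube genes and 0.25 for mural genes. On log2(TPM + 1) values Hey2 came at place 2 (r = 0.94), the median of the endothelial lists was 0.38 and that of all genes 0.14.

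Of the 90 other endothelial genes tested, 6 were called higher and 4 lower in beta-catenin cKO, 14 higher and 9 lower in Emg1 cKO, and 4 higher and 2 lower in Vangl2 Lp/Lp. Their median log2 fold changes were 0.01, -0.04 and -0.02, close to those of all genes. Of all genes tested, 7.48% were called higher and 6.99% lower for beta-catenin cKO. The shares were 11.3% and 10.4% for Emg1 cKO, then 5.45% and 3.34% for Vangl2 Lp/Lp. Counts of the single lists below stand against the same shares. Those of the 90 genes were near or below them, except that the 14 higher for Emg1 cKO were somewhat above. They are not read as an endothelial result. When single libraries were left out, the counts in beta-catenin cKO lay between 4 and 9 higher and between 1 and 3 lower, with at most 2 lower without any one library other than wild-type replicate 3. In Emg1 cKO they lay between 6 and 14 higher and between 7 and 9 lower, with 6 higher without Emg1 cKO replicate 2, 8 without wild-type replicate 2, and 9 without replicate 3 of either genotype. In Vangl2 Lp/Lp they lay between 2 and 5 higher and between 0 and 2 lower, with 2 higher without replicate 3 of either genotype, 0 lower without Vangl2 Lp/Lp replicate 1 or 2 or wild-type replicate 3, and 1 lower without Vangl2 Lp/Lp replicate 3 or wild-type replicate 2.

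The 8 tested genes of the VEGF axis other than the members had 0 called by edgeR in each mutant. DESeq2 called 1 in beta-catenin cKO and 0 in the other mutants, and 3, 2 and 0 had an unadjusted p under 0.05 in beta-catenin cKO, in Emg1 cKO and in Vangl2 Lp/Lp. Vegfa, the main ligand of KDR and FLT1, averaged 65.4 ± 4.9, 55.0 ± 4.29, 60.0 ± 6.83 and 52.8 ± 5.58 TPM in beta-catenin cKO, Emg1 cKO, Vangl2 Lp/Lp and wild type (SD, n = 3 each). The angiopoietin list, the ligands and partners of TEK and TIE1, had 0 of 7 called by edgeR, while DESeq2 called 1 in beta-catenin cKO, and 2, 0 and 1 had an unadjusted p under 0.05 in the same order. Angpt1, the activating ligand of TEK, averaged 18.9 ± 1.84, 17.7 ± 0.885, 16.2 ± 1.96 and 14.8 ± 1.62 TPM, and Angpt2, which can counter it, 5.66 ± 0.413, 6.06 ± 1.15, 3.81 ± 0.657 and 4.46 ± 1.04 TPM in the same order. These ligand means are in TPM, a scale shifted in the mutants. On log2(TPM + 1) values the median fold change of all genes was 0.103 in beta-catenin cKO, 0.11 in Emg1 cKO and 0.077 in Vangl2 Lp/Lp. Among 12 tested genes of the BMP9 and ALK1 pathway, in which endoglin acts, 1 was called higher and 1 lower in Emg1 cKO. In beta-catenin cKO edgeR called 0 and DESeq2 1, with 3 at an unadjusted p under 0.05, and in Vangl2 Lp/Lp both called 0, with 2 at an unadjusted p under 0.05. The called genes were Bmpr2, a type II receptor gene (log2 fold change 0.31, adjusted p = 0.033, lost without any one of the Emg1 cKO libraries or without wild-type replicate 2 or 3, with adjusted p-values up to 0.098), and Id1, a target gene of BMP signalling (-0.37, adjusted p = 0.0012).

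Of 14 other junction and surface genes, 1 was called higher in beta-catenin cKO, 3 higher and 2 lower in Emg1 cKO, and 1 higher in Vangl2 Lp/Lp. In Emg1 cKO 1 was lower without any one library other than wild-type replicate 2, and in Vangl2 Lp/Lp 2 were higher without Vangl2 Lp/Lp replicate 2 and with DESeq2. Jam2, which encodes a junctional adhesion molecule of endothelium and other cells, was called higher in each mutant. It averaged 16.8 ± 0.727 TPM in beta-catenin cKO, 19.4 ± 2.27 in Emg1 cKO, 21.7 ± 3.83 in Vangl2 Lp/Lp and 10.3 ± 0.517 in wild type, with log2 fold changes of 0.59, 0.79 and 0.99. F11r, the gene of a junctional adhesion molecule that epithelia also carry, was lower in Emg1 cKO (40.8 ± 1.56 against 51.1 ± 5.66 TPM; -0.44, adjusted p = 0.00087). Of 14 endothelial transcription factor genes, 1 was called higher and 2 lower in beta-catenin cKO, 4 higher and 1 lower in Emg1 cKO, and edgeR called 0 in Vangl2 Lp/Lp, where DESeq2 called 1 and 1 had an unadjusted p under 0.05. The count higher in Emg1 cKO was 1 without Emg1 cKO replicate 2 or wild-type replicate 2. The count lower in beta-catenin cKO was 1 without beta-catenin cKO replicate 2 or wild-type replicate 3 and 0 without any one of the other libraries compared. Gata2, a factor of endothelium, blood progenitors and spinal neurons, was higher in beta-catenin cKO and Emg1 cKO (7.73 ± 1.14 and 9.22 ± 0.222 against 4.49 ± 0.453 TPM; log2 fold changes 0.66 and 0.91), and Tal1, a factor of blood and endothelium, was lower in Emg1 cKO (-0.44, adjusted p = 0.01; up to 0.078 without Emg1 cKO replicate 3 or in limma fits on TPM).

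Of 12 arterial and Notch genes, 1 was called higher and 1 lower in beta-catenin cKO, 3 higher and 1 lower in Emg1 cKO, and 2 higher in Vangl2 Lp/Lp. The count lower in beta-catenin cKO was 0 without any one library other than wild-type replicate 3, and DESeq2 called 2 higher there. The count higher in Emg1 cKO was 1 without replicate 3 of either genotype, and that in Vangl2 Lp/Lp was 0 without Vangl2 Lp/Lp replicate 3 and 1 without wild-type replicate 3. Jag1, a Notch ligand gene that neural progenitors also express, was higher in each mutant (log2 fold changes 0.38, 0.28 and 0.27 for beta-catenin cKO, for Emg1 cKO and for Vangl2 Lp/Lp, the call in Vangl2 Lp/Lp being lost without Vangl2 Lp/Lp replicate 3). Of 8 venous and lymphatic genes, 2 were called higher in beta-catenin cKO, 2 higher and 1 lower in Emg1 cKO, and 1 higher in Vangl2 Lp/Lp. The count higher was 1 in beta-catenin cKO without beta-catenin cKO replicate 3 or wild-type replicate 2 or 3, and 1 in Emg1 cKO without replicate 2 or 3 of either genotype. Prox1, the lymphatic factor gene that is also active in the neural tube, was higher in Emg1 cKO (0.67, adjusted p = 0.005) and Vangl2 Lp/Lp (0.61, adjusted p = 0.02), the second call being lost without Vangl2 Lp/Lp replicate 1 or wild-type replicate 2 or 3. Of 21 further endothelial genes, 1 was called higher and 1 lower in beta-catenin cKO, 1 higher and 4 lower in Emg1 cKO, and 2 lower in Vangl2 Lp/Lp. The 1 higher in beta-catenin cKO was lost without any one library other than wild-type replicate 1, without which 2 were lower. The 1 higher in Emg1 cKO was lost without Emg1 cKO replicate 2 or 3, and DESeq2 called 2. In Vangl2 Lp/Lp 0 were lower without Vangl2 Lp/Lp replicate 1 or 2 or wild-type replicate 3, and 1 without Vangl2 Lp/Lp replicate 3 or wild-type replicate 2. Esm1, which encodes a proteoglycan of endothelial tip cells and a gene raised by VEGF, was lower in each mutant. It averaged 2.46 ± 0.0783 TPM in beta-catenin cKO, 2.41 ± 0.311 in Emg1 cKO, 2.75 ± 0.396 in Vangl2 Lp/Lp and 4.14 ± 0.549 in wild type, and no mutant library reached the lowest wild-type one. The log2 fold changes were -0.86 (adjusted p = 0.0092), -0.90 (adjusted p = 0.0042) and -0.68 (adjusted p = 0.04). The call in Vangl2 Lp/Lp was lost in 10 of 16 alternatives, among them those without Vangl2 Lp/Lp replicate 1 or 2 and without wild-type replicate 2 or 3.

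Vessels grow into the neural tube under WNT7A and WNT7B, which neural progenitors release and endothelial cells read through ADGRA2 (GPR124), RECK and FZD4. Of 10 genes of this list, 3 were called higher and 2 lower in beta-catenin cKO, 2 higher and 1 lower in Emg1 cKO, and 2 higher and 1 lower in Vangl2 Lp/Lp. Without wild-type replicate 1, 6 were higher in beta-catenin cKO and 4 in Emg1 cKO, and 2 were lower in Emg1 cKO without Emg1 cKO replicate 3 and with DESeq2. In Vangl2 Lp/Lp 1 was higher without Vangl2 Lp/Lp replicate 1 or 3 or wild-type replicate 2 or 3. Wnt7b was higher in each mutant, at 17.2 ± 1.32 TPM in beta-catenin cKO, 20.2 ± 2.15 in Emg1 cKO and 19.9 ± 3.32 in Vangl2 Lp/Lp, against 9.30 ± 0.0797 in wild type, with log2 fold changes of 0.77, 0.99 and 1.01. Slc2a1, the glucose transporter gene GLUT1 that neural vessels keep as they mature and that red cells and neural progenitors also express, was lower in each mutant. It averaged 235 ± 12.7, 197 ± 3.07 and 217 ± 18.7 TPM in beta-catenin cKO, in Emg1 cKO and in Vangl2 Lp/Lp, against 280.0 ± 25.8 TPM in wild type, with log2 fold changes of -0.36, -0.63 and -0.45. Beside the endothelial genes, 4, 5 and 6 of 10 neural tube genes were called higher in beta-catenin cKO, in Emg1 cKO and in Vangl2 Lp/Lp, and 1 was called lower, Pax3 in beta-catenin cKO (-0.34, adjusted p = 0.0024). In Emg1 cKO and Vangl2 Lp/Lp DESeq2 called 1 lower, and so did edgeR in Vangl2 Lp/Lp without Vangl2 Lp/Lp replicate 2. The 10 genes summed to 625 to 682, 799 to 849 and 631 to 897 TPM, against 429 to 468 TPM in wild type. The part of this difference in the values of Wnt7b, Jag1, Gata2 and Prox1 was not tested.

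Mural cells wrap the vessels. Of 11 tested genes of pericytes and smooth muscle, 3 were called higher and 0 lower in beta-catenin cKO, 3 higher and 2 lower in Emg1 cKO, and 3 higher and 0 lower in Vangl2 Lp/Lp. DESeq2 called 5 higher in beta-catenin cKO. The count lower in Emg1 cKO was 1 without replicate 1 or 2 of either genotype, and that in Vangl2 Lp/Lp was 2 without Vangl2 Lp/Lp replicate 1. The pericyte gene Cspg4 (NG2), which other mesenchymal and neural cells express as well, averaged 4.26 ± 0.619, 4.24 ± 0.768 and 3.73 ± 0.408 TPM in beta-catenin cKO, in Emg1 cKO and in Vangl2 Lp/Lp, against 1.88 ± 0.238 TPM in wild type. Its log2 fold changes were 1.06, 1.05 and 0.90. Rgs5, a pericyte gene of the embryo, was higher in beta-catenin cKO (0.63, adjusted p = 0.0041) and Vangl2 Lp/Lp (0.71, adjusted p = 0.0032). Abcc9, which encodes a potassium channel subunit of pericytes and muscle, was lower in Emg1 cKO (0.807 ± 0.0727 against 3.69 ± 0.843 TPM; -2.30, adjusted p = 9.9e-05).

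Red cells circulate in the same vessels. Of 14 erythroid genes, 10 were called lower and 1 higher in beta-catenin cKO, 12 lower and 1 higher in Emg1 cKO, and 3 lower and 1 higher in Vangl2 Lp/Lp, with median log2 fold changes of -0.54, -0.66 and -0.16. When single libraries were left out, 6 to 8, 7 to 12 and 1 to 3 were called lower, with 6 in beta-catenin cKO without its replicate 2 or 3, 7 in Emg1 cKO without its replicate 3, and 1 in Vangl2 Lp/Lp without its replicate 3 or wild-type replicate 3. The call of the 1 higher gene was lost in each mutant without replicate 1 or 2 of that mutant or of wild type. Alas2, the first enzyme of haem synthesis in red cells, averaged 60.5 ± 2.69, 58.8 ± 9.4 and 70.6 ± 14.1 TPM in beta-catenin cKO, in Emg1 cKO and in Vangl2 Lp/Lp, against 98.0 ± 2.06 TPM in wild type. The median change of the 10 endothelial members (-0.01 in beta-catenin cKO, -0.10 in Emg1 cKO) was smaller than the erythroid one in these mutants. In Vangl2 Lp/Lp the medians were close, at -0.13 for the members and -0.16 for the erythroid list. Of 9 megakaryocyte and platelet genes 3 were called higher in beta-catenin cKO, 3 in Emg1 cKO and 0 in Vangl2 Lp/Lp. In beta-catenin cKO the count was 6 without beta-catenin cKO replicate 1, 1 without beta-catenin cKO replicate 2 or 3 or wild-type replicate 2, and 7 with DESeq2. In Emg1 cKO it lay between 2 and 4 when single libraries were left out and was 4 with DESeq2, and in Vangl2 Lp/Lp it was 1 without wild-type replicate 3. Of 13 macrophage genes edgeR called 0 in beta-catenin cKO, 2 higher in Emg1 cKO and 0 in Vangl2 Lp/Lp. In Emg1 cKO 1 was higher without any one library other than wild-type replicate 3, and in beta-catenin cKO 1 was higher without beta-catenin cKO replicate 3 and 2 without wild-type replicate 3. For the counts of 0, DESeq2 called 1 megakaryocyte gene in Vangl2 Lp/Lp and 1 and 0 macrophage genes in beta-catenin cKO and Vangl2 Lp/Lp, with 1, 3 and 2 at an unadjusted p under 0.05. Summed over their lists, megakaryocyte genes lay between 52.9 and 81.0 TPM in beta-catenin cKO, 58.4 and 64.3 TPM in Emg1 cKO, 54.8 and 58.7 TPM in Vangl2 Lp/Lp and 35.5 and 52.2 TPM in wild type. Macrophage genes lay between 61.6 and 72.1, 64.6 and 68.8, 56.1 and 76.9 and 46.1 and 59.6 TPM in the same order. Pecam1, Tek and Kdr can also be expressed by blood progenitors or myeloid cells, and the part of these cells in the members' values was not tested.

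**Figure D5:**
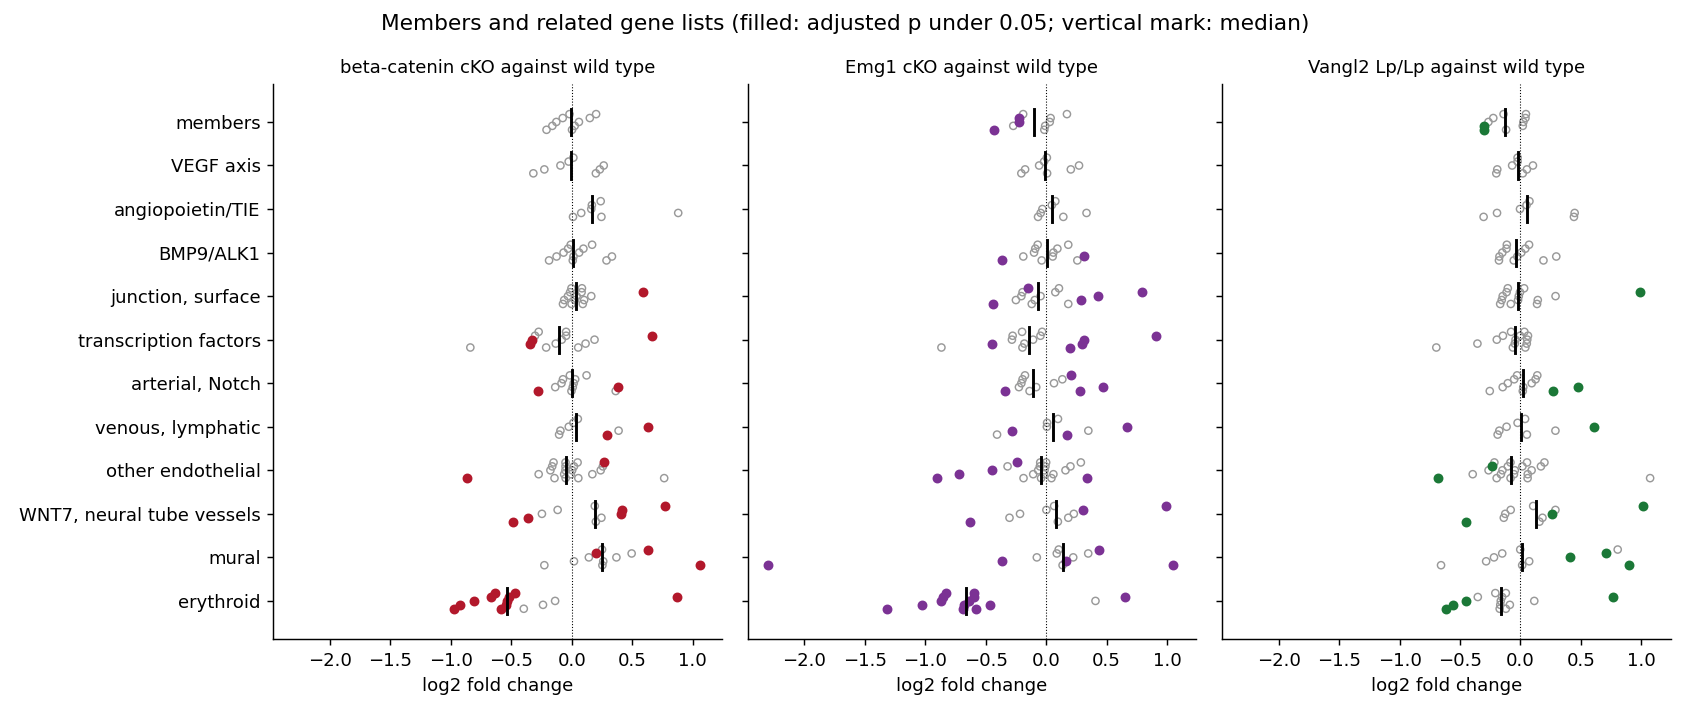
Log2 fold changes of the 10 members (top row) and of the related gene lists in the 3 mutants against wild type; filled points have an adjusted p under 0.05 and vertical marks are medians. The members lie within 0.43 of zero, whereas the erythroid list is shifted to the left in beta-catenin cKO and Emg1 cKO, with medians of -0.54 and -0.66.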

How the data were processed

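RNA was extracted with a miRNeasy kit and libraries were made with a TruSeq Stranded mRNA kit, per the labels' protocols. The submitters' processing notes name Trimmomatic 0.39, STAR 2.7.10b and mm10. What counted the reads, with which strand setting and on which annotation, is not given in the sources used here. In the table the authors deposited there were 53342 genes, with 2 values per library: the log2 of TPM, with values of 1 TPM or less written as 0, and the expected count of reads, which is not normalised. Per the file headers, all 24 value columns were matched to libraries. TPM under 1 were rebuilt from the expected counts, because above 1 TPM the log2 ratio of counts to TPM split into a gene term and a library term with residuals of at most 1.2e-06.

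Rounded expected counts went into edgeR 4.0.16 (R 4.3.3). All 12 libraries shared a fit with a mean for each genotype after TMM scaling, and contrasts were tested by quasi-likelihood F tests, which are two-sided. The filter asked for 1 TPM or more in 3 or more libraries and kept 17848 genes, leaving out 35494. Called means an adjusted p (Benjamini-Hochberg, over all genes kept, within a comparison) under 0.05. Standard errors are the log2 fold change divided by the square root of F. Intervals of a fold change are 95% intervals of the fit. The procedure was tested on simulated data. Depth was 32863562 to 46464596 reads. P-values measure spread between pools of embryos, not between embryos.

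The members and the 16 further gene lists were chosen with earlier results of these data known. All members are named. From each list up to 2 called genes per mutant with the smallest adjusted p could be named, along with Vegfa, Angpt1 and Angpt2, which were added after their values were seen, and the 8 genes whose pattern was most like the members' mean, of which 1 is not reported here. Alternatives were upper-quartile scaling, DESeq2 size factors, library totals, other filters, DESeq2 1.42.0, limma 3.58.1 on log2(TPM + 1) and log2(TPM + 0.1), voom with library weights, a fit of the 2 genotypes alone, a replicate block and each library left out. Replicate numbers were shared between genotypes, but same-numbered libraries did not deviate together: the correlation of their deviations lay between -0.13 and 0.10 over 18 pairs, with 0 pairs above 0.1. No 2 libraries agreed within sampling noise. Gene coordinates were those of the table, and 96.1% of its genes had the same coordinates in GENCODE vM21.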

Additional observations from a re-analysis of the deposited data

How the results depend on the processing

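Each called member kept its direction under all alternatives run, but its call depended on scaling and on single libraries. In beta-catenin cKO the count of members called was 0, and it was 1 with limma on log2(TPM + 0.1) and on log2(TPM + 1) (Tie1, higher, 0.26, adjusted p = 0.049 and 0.05) and 1 with voom (Kdr, lower, -0.17, adjusted p = 0.02). It lay between 0 and 1 when single libraries were left out. In Emg1 cKO the count was 3, and it was 4 with DESeq2 (Esam added, adjusted p = 0.039), 1 with library totals, 1 in a fit of the 2 genotypes alone, 0 in both limma fits on TPM, and between 1 and 3 when single libraries were left out. In Vangl2 Lp/Lp it was 2, and it was 4 without the filter on low values and with voom (Tek and Cdh5 added), 3 with DESeq2 (Cdh5 added, adjusted p = 0.039), 0 in both limma fits and with the 2 genotypes alone, and between 0 and 3 when single libraries were left out. In beta-catenin cKO against Emg1 cKO voom called 1 member (Cdh5, 0.19, adjusted p = 0.037), where the count was 0. On the scale of log2(TPM + 1) the median of all genes was shifted by 0.103 in beta-catenin cKO, 0.11 in Emg1 cKO and 0.077 in Vangl2 Lp/Lp. Relative to that shift Kdr was at -0.11, -0.21 and -0.29, Tek at -0.14, -0.39 and -0.24, and Tie1 at 0.15, 0.04 and 0.02, close to their values on the TMM scale. Over all alternatives the adjusted p lay between 0.0012 and 0.44 for Kdr, 3.4e-05 and 0.15 for Tek and 0.0027 and 0.44 for Cdh5 in Emg1 cKO, and between 0.00011 and 0.15 for Kdr and 0.0054 and 0.11 for Emcn in Vangl2 Lp/Lp. Of 1020 fold changes of members under alternatives, 30 lost the call, 14 gained it and 0 called values turned round, while 82 uncalled ones changed sign, 11 of them by at least the standard error of the reported value. Of 1632 counts of called genes in the related lists under alternatives, 314 moved by over 1.5 times or to or from 0, so these small counts depend on the setting. The replicate block, whose numbers did not pair the samples, left 3 members called in Emg1 cKO, 2 in Vangl2 Lp/Lp and 0 in beta-catenin cKO, and changed no call of a member. Log2 fold changes of members had standard errors of 0.065 to 0.112, so members that were not called may still differ by as much as their 95% intervals allow.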
